A study of Mus musculus with 10 samples.

Results

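Branched-chain amino acid breakdown was followed through 10 genes in mouse liver and in 2 kinds of mouse liver tumour. The genes were picked by symbol from the 16697 genes that carry values, and all 10 were found: Bcat1, Bcat2, Bckdha, Bckdhb, Dbt, Bckdk, Ivd, Mccc1, Mccc2 and Hibch. All 10 passed the filter on low values, which asks for 1 FPKM or more in 3 or more libraries. Of these, 9 reached 1 FPKM in every library. The exception was Bcat1, which passed only through the 3 libraries in which it was high. FPKM are fragments scaled by the length of the gene and by the size of the library, so that they can be compared between genes as far as the gene length used is right.

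Leucine, isoleucine and valine are broken down along a shared start and separate ends. The branched-chain aminotransferases, cytosolic BCAT1 and mitochondrial BCAT2, take off the amino group, and the branched-chain keto acid dehydrogenase complex then commits the keto acids to oxidation. Bckdha and Bckdhb encode the alpha and beta subunits of its decarboxylase, Dbt encodes its acyltransferase core, and Bckdk encodes the kinase that phosphorylates the alpha subunit and switches the complex off. Adult hepatocytes are known for high dehydrogenase activity and little aminotransferase, so that the amino groups are taken off mainly in muscle and other tissues. Downstream, Ivd encodes isovaleryl-CoA dehydrogenase and Mccc1 and Mccc2 the subunits of methylcrotonyl-CoA carboxylase, all in leucine breakdown, and Hibch encodes 3-hydroxyisobutyryl-CoA hydrolase in valine breakdown.

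RNA was sequenced from normal liver of wild-type mice (NL, n = 4), from tumours induced with c-MYC and the empty vector pT3-EF1α (c-MYC, n = 3), and from tumours induced with c-MYC and FOXO1AAA (c-MYC/FOXO1AAA, n = 3). FOXO1AAA is a Myc-tagged form of the transcription factor FOXO1 that AKT cannot inactivate, and the EF1α promoter, which is active in most cell types, drives it. The plasmids entered the liver by hydrodynamic tail vein injection together with the sleeping beauty transposase, a method that reaches a part of the hepatocytes. The labels give the strain as C57BL/6 and the genotype as WT for every sample. The extraction note instead gives FVB for the normal livers, and the methods and design give FVB/N both for these and for the injected mice. Ages are not given in the labels. The methods count the tumour groups as mice, whereas the labels do not tie each library to an animal, and the p-values below measure the spread between these samples.

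The libraries held 13.1 to 20.5 M (mega) reads in listed genes. Foxo1 checked the labels: it averaged 7.14 ± 0.532, 5.63 ± 0.721 and 83.1 ± 12.8 FPKM (SD; n = 4, 3 and 3) across NL, c-MYC and c-MYC/FOXO1AAA. Mouse Myc was lower in both kinds of tumour than in NL, at 11.2, 0.771 and 0.983 FPKM, so that the row does not show the injected c-MYC. The 7 hepatocyte markers summed to 80213 to 90081 FPKM in NL, 3255 to 5080 in c-MYC and 864 to 1543 in c-MYC/FOXO1AAA. None of them was at 0 reads in any group. The 6 skeletal muscle markers summed to 0.675 to 0.799 FPKM in NL, 1.27 to 5.90 in c-MYC and 268 to 377 in c-MYC/FOXO1AAA. Of these, 4 had no read in any NL library and 2 had none in any c-MYC library.

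The comparison of c-MYC with NL asked how transcripts of the pathway differ in the tumours. Of the members, 1 rose, the kinase gene Bckdk, and 3 fell, namely Bckdha, Bckdhb and Ivd (limma treat, 2-sided test for a change above 1.5-fold, Benjamini-Hochberg adjusted p under 0.05 over all genes tested). Among the 14017 genes tested, 24.5% were called higher and 23.6% lower. The median log2 ratio (the fitted log2 fold change) of the 10 members was -0.64, beside 0.08 for all genes tested. Neither aminotransferase gene passed the test.

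The comparison of c-MYC/FOXO1AAA with c-MYC asked how transcripts of the pathway differ between the tumours. Both aminotransferase genes rose, and 4 members fell: Dbt, Mccc2, Hibch and Bckdha. Among all genes tested, 15.9% were called higher and 12.7% lower. The median log2 ratio was -0.84 over the members and 0.03 over all genes tested. Against NL, all 10 members passed the test in c-MYC/FOXO1AAA. Bcat1, Bcat2 and Bckdk rose and the other 7 fell, where 31.2% of all genes were called higher and 26.6% lower. The median was -1.40 over the members and 0.21 over all genes tested. Bcat1 entered the test only through the libraries in which it was high, so that its calls in these counts are a description. The 3 comparisons share libraries pair by pair and are not independent of each other. In bulk tissue, fewer cells of a type and less RNA per cell cannot be told apart.

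**Figure D1:**
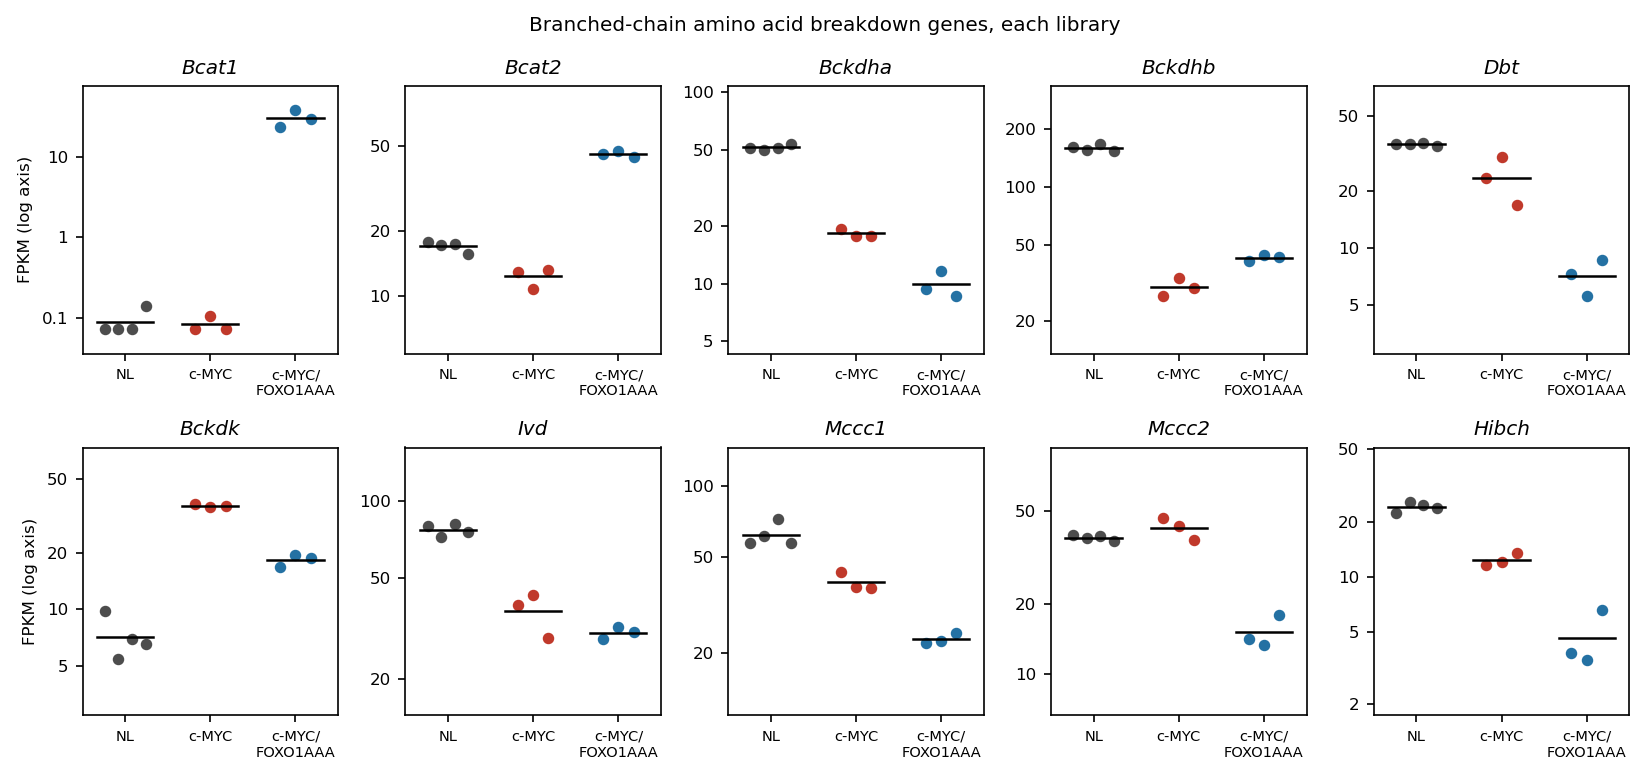
FPKM of the 10 genes in each library (log axis, a different range in each panel). Points are libraries, in NL (n = 4), c-MYC (n = 3) and c-MYC/FOXO1AAA (n = 3), and lines are group means. Bcat1 is at 0.140 FPKM or below in the 7 NL and c-MYC libraries and at 23.4 to 37.6 in c-MYC/FOXO1AAA, and the 4 Bckdk values in NL all lie below the tumour values.

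Bcat1 (chromosome 6, 144993835 to 145076184, minus strand, GRCm38 in GENCODE M21) was nearly silent in normal liver and in c-MYC tumours. The 4 NL libraries held 0, 0, 0 and 1 of its reads, and the 3 c-MYC libraries held 0, 1 and 0. The c-MYC/FOXO1AAA libraries held 945, 1839 and 935 reads, which correspond to 23.4, 37.6 and 29.1 FPKM. No library of the first 7 came near the other 3. Taking 3 reads in each library as the upper limit for the low groups, the mean of 30.0 FPKM ± 7.11 (SD, n = 3) was at least 304-fold higher than in c-MYC and at least 160-fold higher than in NL. As Bcat1 entered the test only through these 3 libraries, its calls are a description and no p is given. No fold change can be given between c-MYC and NL, where both groups lay within 3 reads, and these limits cover counting error only.

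Bcat2 (chromosome 7, 45570153 to 45589711, plus strand) was expressed in every group. Its level was 17.9, 17.3, 17.3 and 15.6 FPKM in NL, from 291 to 409 reads. It was 12.9, 10.8 and 13.2 FPKM in c-MYC and 45.5, 47.3 and 44.1 FPKM in c-MYC/FOXO1AAA. All 3 c-MYC libraries lay below all NL libraries and all c-MYC/FOXO1AAA libraries lay above both. Bcat2 rose 3.72-fold over c-MYC, a log2 ratio of 1.90 (SE 0.11, adjusted p 2.17e-06, limma). Against NL it rose 2.68-fold, with a log2 ratio of 1.42 (SE 0.10, adjusted p 1.11e-05, limma). The log2 ratio between c-MYC and NL was -0.47 (SE 0.10) and did not pass the 1.5-fold test (adjusted p 1, limma), and its sign turned to 0.45 at equal FPKM totals.

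FOXO1 belongs to the forkhead factors, and the promoters of both aminotransferase genes are shown because both rose where it was active. Each sequence is the 250 bases before an annotated start, from RefSeq on GRCm38.p6, 5′ to 3′ on the strand of the gene. Capitals mark the letters TTGTTT or their reverse complement.
Bcat1 start 1, chr6:145076158-145076407, minus strand: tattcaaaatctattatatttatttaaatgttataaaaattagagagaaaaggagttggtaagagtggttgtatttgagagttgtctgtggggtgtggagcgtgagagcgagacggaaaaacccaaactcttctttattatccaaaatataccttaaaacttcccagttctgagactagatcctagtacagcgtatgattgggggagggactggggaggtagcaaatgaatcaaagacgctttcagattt
Bcat1 start 2, chr6:145048813-145049062, minus strand: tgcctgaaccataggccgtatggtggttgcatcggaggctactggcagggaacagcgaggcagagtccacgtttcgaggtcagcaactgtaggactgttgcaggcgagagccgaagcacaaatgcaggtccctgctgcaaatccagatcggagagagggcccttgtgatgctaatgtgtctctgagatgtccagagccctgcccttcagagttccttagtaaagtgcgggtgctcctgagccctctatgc
Bcat2 start 1, chr7:45569903-45570152, plus strand: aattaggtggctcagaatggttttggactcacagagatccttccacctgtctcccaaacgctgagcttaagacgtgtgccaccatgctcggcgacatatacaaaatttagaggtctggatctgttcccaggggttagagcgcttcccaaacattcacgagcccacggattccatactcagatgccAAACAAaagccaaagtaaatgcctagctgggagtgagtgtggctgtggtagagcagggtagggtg
Bcat2 start 2, chr7:45571029-45571278, plus strand: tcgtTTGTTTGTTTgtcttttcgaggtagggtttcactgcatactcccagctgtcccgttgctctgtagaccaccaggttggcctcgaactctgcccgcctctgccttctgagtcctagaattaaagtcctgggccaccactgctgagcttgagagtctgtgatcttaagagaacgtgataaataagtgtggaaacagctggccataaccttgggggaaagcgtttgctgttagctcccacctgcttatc

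The letters were searched on both strands of 12 promoters of 9 members. The table of promoters has no entry for Dbt. The forkhead site TGTTTAC stood in 0 of the 12 and in 3.17% of all 32851 promoters of the same length. The shorter TTGTTT, which overlaps that site by most of its letters, stood in 3 of the 12 and in 18.3% of all promoters. These 3 were both Bcat2 starts and the Ivd promoter. At the second Bcat2 start, the 2 matches overlap in a repeat of the letters. The E-box CACGTG, which MYC can bind, stood in 1 of the 12, that of Mccc2, and in 6.02% of all promoters. Bcat2 and Mccc2 moved in opposite directions between c-MYC/FOXO1AAA and c-MYC, and the Bcat1 windows held none of these letters. Sites outside these windows were not searched.

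Together the aminotransferase genes changed from a single expressed gene to a pair. Using the gene lengths of the deposited values, Bcat1 made up 34.0, 44.3 and 39.8% of the summed Bcat1 and Bcat2 FPKM in the c-MYC/FOXO1AAA libraries. In NL and c-MYC the share was below 1% and sat at the value that a gene with 0 or 1 read receives. The share depends on the length. The deposited length of Bcat1 is 1642 bases, that of the short coding transcript Bcat1-202, while the longest coding transcript has 7833 bases. With the longest coding transcript of each gene, the share was 9.75, 14.3 and 12.2%. Bcat2 was above Bcat1 in all 3 libraries at either length.

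Genes whose profile was closest to that of Bcat1 were found by the root mean square difference of log2 FPKM over the 10 libraries, each gene centred on its own mean, among 7991 genes with a group mean of at least 10 FPKM. The 5 closest were Myog, Foxd1, Osr2, Faxc and St6galnac5, at differences of 0.36 to 0.44. Their means in NL and in c-MYC were 0.0209 to 0.0894 FPKM, at or near the value given to genes without reads. The differences therefore depend on that value. Myog, a transcription factor of muscle differentiation, averaged 25.9 ± 8.96 FPKM (SD, n = 3) with FOXO1AAA and had no read in the other 7 libraries. For Bcat2 the 5 closest were Josd2, Mrps6, B230118H07Rik, Junb and Rexo2, at 0.11 to 0.18. Josd2, which encodes a deubiquitinating enzyme, stood at 26.6, 19.2 and 77.7 FPKM in NL, c-MYC and c-MYC/FOXO1AAA. The muscle markers rose in the same libraries as Bcat1. Between the tumours 5 of 6 were called higher, where 15.9% of all genes were, with a median log2 ratio of 8.20. These 5 lay below 1 FPKM in every NL and c-MYC library. They entered the test only through the libraries in which they were high, so that their calls are a description. The size of the median depends on the value given to genes without reads. The part of muscle cells in the Bcat1 and Bcat2 values was not tested.

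Of the 3 subunit genes of the dehydrogenase complex, Bckdha and Bckdhb fell in c-MYC against NL, and Dbt did not pass the test. Bckdhb (chromosome 9, 83925145 to 84124240, plus strand) was the most abundant member in normal liver, at 162, 156, 169 and 154 FPKM. It was 26.9, 33.6 and 29.6 FPKM in c-MYC and 40.9, 43.9 and 43.0 FPKM in c-MYC/FOXO1AAA, so that no tumour library came near an NL library. Bckdhb fell, at a log2 ratio of -2.42, in c-MYC against NL (SE 0.09, adjusted p 3.18e-08, limma). Between the tumours, its log2 ratio was 0.51 (SE 0.10), with all c-MYC/FOXO1AAA libraries above all c-MYC libraries, and it did not pass the test (adjusted p 1, limma).

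Bckdha (chromosome 7, 25629946 to 25658981, minus strand) was at 51.0, 50.2, 51.4 and 53.9 FPKM in NL. It stood at 19.3, 17.8 and 17.8 FPKM in c-MYC and at 9.42, 11.7 and 8.63 FPKM in c-MYC/FOXO1AAA. The levels of the 3 groups did not overlap, in the order NL, c-MYC, c-MYC/FOXO1AAA. It fell, at a log2 ratio of -1.49, in c-MYC against NL (SE 0.11, adjusted p 1.72e-05, limma). It fell further in c-MYC/FOXO1AAA, with a log2 ratio of -0.90 against c-MYC (SE 0.12, adjusted p 0.0377, limma). That second call was lost in 13 of 21 alternatives, among them the fits without c-MYC 1, 2 or 3, without NL 3 or 4 and without c-MYC/FOXO1AAA 1 or 3.

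Dbt (chromosome 3, 116513070 to 116549981, plus strand) passed the test between the tumours and not between c-MYC and NL; whether the 2 steps differ was not tested. Its level was 35.3, 35.5, 35.8 and 34.8 FPKM in NL. In c-MYC it was 23.5, 30.1 and 17.0 FPKM, the widest spread of the 3 groups. The c-MYC/FOXO1AAA libraries had 7.32, 5.56 and 8.64 FPKM, all below every c-MYC library. Dbt fell, at a log2 ratio of -1.70, between the tumours (SE 0.20, adjusted p 0.000708, limma). Its log2 ratio in c-MYC against NL was -0.63 (SE 0.19, adjusted p 0.630, limma), and this sign turned to 0.30 when each library was scaled to the same FPKM total.

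Ratios between members within a library do not depend on how libraries are scaled, and they are given as a description. Bckdha relative to Bckdhb was 0.304 to 0.351 in NL, 0.531 to 0.718 in c-MYC and 0.201 to 0.266 in c-MYC/FOXO1AAA. Dbt relative to Bckdhb was 0.212 to 0.228 in NL, 0.572 to 0.895 in c-MYC and 0.127 to 0.201 in c-MYC/FOXO1AAA. Both ratios were highest in c-MYC and lowest in c-MYC/FOXO1AAA, without overlap. Bcat2 relative to Bckdha was 0.290 to 0.350 in NL, 0.604 to 0.741 in c-MYC and 4.06 to 5.11 in c-MYC/FOXO1AAA. Relative to Bckdhb, Bcat2 was 0.102 to 0.111 in NL, 0.320 to 0.480 in c-MYC and 1.03 to 1.11 in c-MYC/FOXO1AAA. The summed Bcat1 and Bcat2 FPKM was 0.293 to 0.351 times that of Bckdha in NL and 7.28 to 8.49 times in c-MYC/FOXO1AAA. With the longest coding lengths, the last range was 4.73 to 5.82, again with no overlap with NL. The summed FPKM of the aminotransferase genes thus exceeded that of Bckdha in c-MYC/FOXO1AAA and lay below it in NL at both lengths.

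**Figure D2:**
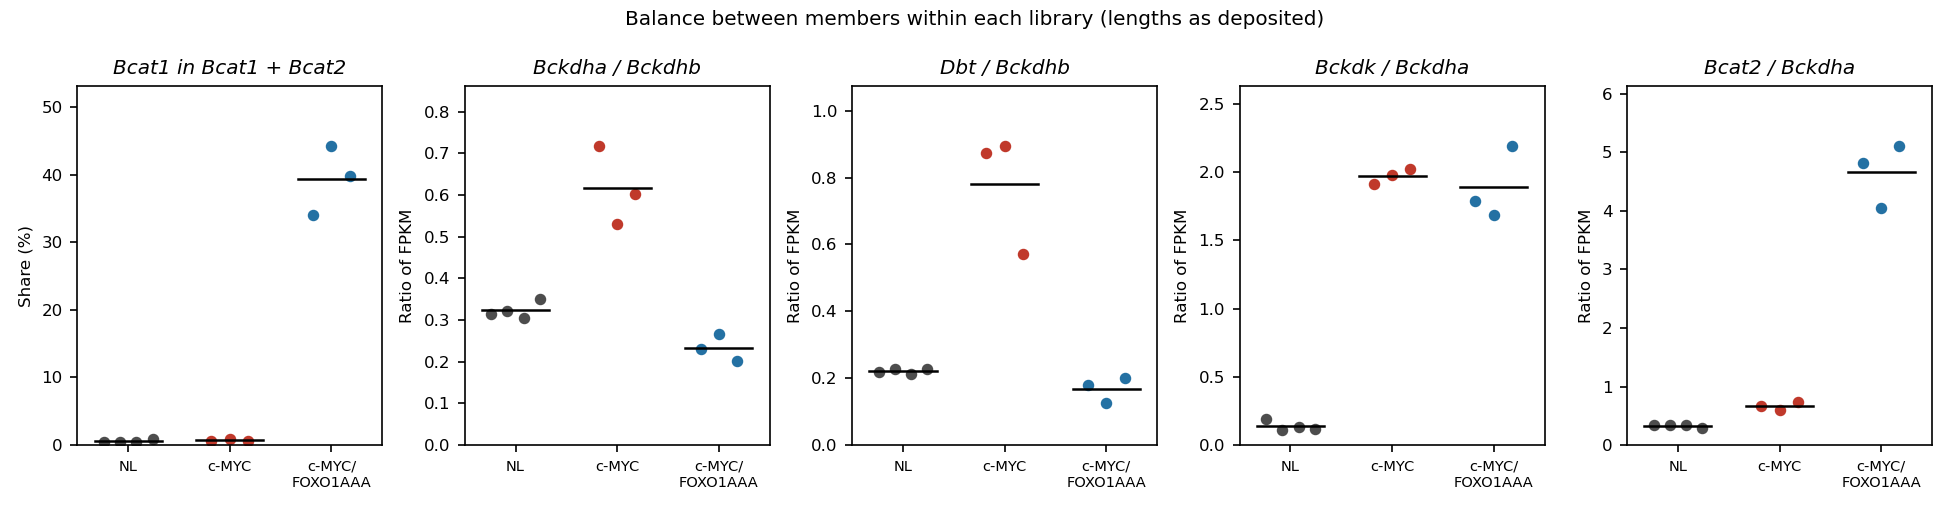
Share of Bcat1 in the summed Bcat1 and Bcat2 FPKM, and ratios of FPKM between members, in each library, with the gene lengths of the deposited values. Points are libraries, lines are group means and every axis starts at 0. The Bcat1 share is 34.0 to 44.3% in c-MYC/FOXO1AAA and below 1% elsewhere, and Bckdk exceeds Bckdha in all 6 tumour libraries and in none of NL.

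The kinase gene rose in both kinds of tumour against NL. Bckdk (chromosome 7, 127904082 to 127910221, plus strand) was at 9.77, 5.42, 6.92 and 6.51 FPKM in NL. It reached 37.0, 35.3 and 36.1 FPKM in c-MYC, and 16.9, 19.7 and 18.9 FPKM in c-MYC/FOXO1AAA. Every tumour library lay above every NL library, and the tumour groups did not overlap. Bckdk rose 5.17-fold in c-MYC over NL, a log2 ratio of 2.37 (SE 0.17, adjusted p 3.18e-06, limma). It also rose in c-MYC/FOXO1AAA over NL, with a log2 ratio of 1.40 (SE 0.17, adjusted p 0.000714, limma). Between the tumours, the log2 ratio was -0.97 (SE 0.18), which missed the threshold (adjusted p 0.0913, limma) and passed it without NL 1, at equal medians or in a fit of only these 2 groups. Bckdk per Bckdha was 0.108 to 0.191 in NL, 1.92 to 2.02 in c-MYC and 1.69 to 2.19 in c-MYC/FOXO1AAA. Per Bckdhb, the ratio was 0.0349 to 0.0603, 1.05 to 1.38 and 0.413 to 0.448 in the same order.

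Ppm1k, which encodes the phosphatase that reverses the kinase, fell in c-MYC against NL. It averaged 18.9 ± 2.07, 1.29 ± 0.303 and 2.19 ± 0.168 FPKM (SD; n = 4, 3 and 3) across NL, c-MYC and c-MYC/FOXO1AAA. The log2 ratio for that fall was -3.89 (SE 0.18, adjusted p 4.47e-08, limma). Between the tumours, its log2 ratio was 0.79 (SE 0.19, adjusted p 0.385, limma). Bckdk per Ppm1k was 0.260 to 0.597 in NL, 22.2 to 37.7 in c-MYC and 7.93 to 9.37 in c-MYC/FOXO1AAA. The 3 ranges did not overlap. These are transcript levels, and the phosphorylation of the complex was not measured here.

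In the leucine branch, Ivd (chromosome 2, 118861954 to 118882909, plus strand) was at 80.2, 72.1, 81.4 and 75.8 FPKM in NL. It was at 38.9, 42.8 and 29.0 FPKM in c-MYC and 28.8, 31.9 and 30.5 FPKM in c-MYC/FOXO1AAA, so that the tumours overlapped and both lay below NL. Ivd fell, at a log2 ratio of -1.09, in c-MYC against NL (SE 0.13, adjusted p 0.00344, limma). The log2 ratio between the tumours was -0.26 (SE 0.14, adjusted p 1, limma).

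The carboxylase subunits, encoded by Mccc1 (chromosome 3, 35959312 to 36000678, minus strand) and Mccc2 (chromosome 13, 99948530 to 100015639, minus strand), did not move in step. Mccc1 was at 57.5, 61.4, 72.2 and 57.5 FPKM in NL, 43.4, 37.5 and 37.2 in c-MYC and 21.9, 22.4 and 24.2 in c-MYC/FOXO1AAA. Mccc2 was at 39.5, 38.5, 39.1 and 37.2 FPKM in NL, 47.0, 43.1 and 37.6 in c-MYC and 14.2, 13.4 and 18.1 in c-MYC/FOXO1AAA. Mccc1 stepped down at each group without overlap, while the NL and c-MYC values of Mccc2 overlapped. Mccc2 fell, at a log2 ratio of -1.49, between the tumours (SE 0.13, adjusted p 0.000113, limma), and Mccc1 had a log2 ratio of -0.78 (SE 0.11, adjusted p 0.163, limma). Against NL, both fell in c-MYC/FOXO1AAA, with log2 ratios of -1.44 for Mccc1 and -1.35 for Mccc2 (adjusted p 1.68e-05 and 8.79e-05, limma). In c-MYC against NL neither passed the test, with log2 ratios of -0.66 and 0.14, the first of which turned to 0.27 at equal FPKM totals. Mccc1 per Mccc2 was 1.45 to 1.84 in NL, 0.870 to 0.990 in c-MYC and 1.34 to 1.67 in c-MYC/FOXO1AAA. The deposited length of Mccc1 is 802 bases, that of a transcript subject to nonsense-mediated decay, and with the longest coding length of 2455 bases the ratio in NL was 0.475 to 0.602. In c-MYC it was 0.284 to 0.323 and in c-MYC/FOXO1AAA 0.438 to 0.545. Which of the 2 subunit genes is higher in NL and in c-MYC/FOXO1AAA therefore rests on the length, while Mccc2 was higher in c-MYC at both lengths.

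In the valine branch, Hibch (chromosome 1, 52844929 to 52920986, plus strand) was at 22.3, 25.5, 24.7 and 23.9 FPKM in NL. It was at 11.6, 12.0 and 13.4 FPKM in c-MYC and 3.84, 3.49 and 6.53 FPKM in c-MYC/FOXO1AAA, with no overlap between any pair of groups. Hibch fell, at a log2 ratio of -1.47, between the tumours (SE 0.20, adjusted p 0.00299, limma). In c-MYC against NL its log2 ratio was -0.97 (SE 0.19) and missed the threshold (adjusted p 0.0680, limma), which it passed without c-MYC/FOXO1AAA 2 or 3. The deposited length of Hibch, 3765 bases, is that of a transcript with a retained intron, and with the longest coding length of 1830 bases its level would be 2.06 times as high in every library.

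The order of the levels turned over between the groups. In NL, Bckdhb came first at 160.0 FPKM ± 6.90 (SD, n = 4), followed by Ivd, and Bckdk and Bcat1 came last. In c-MYC, Mccc2, Mccc1, Ivd and Bckdk led at 42.6, 39.4, 36.9 and 36.1 FPKM, and each overlapped its neighbour. In c-MYC/FOXO1AAA, Bcat2 led at 45.6 FPKM ± 1.62 (SD, n = 3), above Bckdhb at 42.6 FPKM ± 1.55 (SD, n = 3) in all libraries, and Dbt and Hibch came last and overlapped. At the longest coding lengths, Bckdhb still led in NL and Bcat2 still led in c-MYC/FOXO1AAA, but Bcat1 came last there. In c-MYC, Mccc2 still led, while Mccc1 moved from place 2 to place 8, at 12.9 FPKM.

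**Figure D3:**
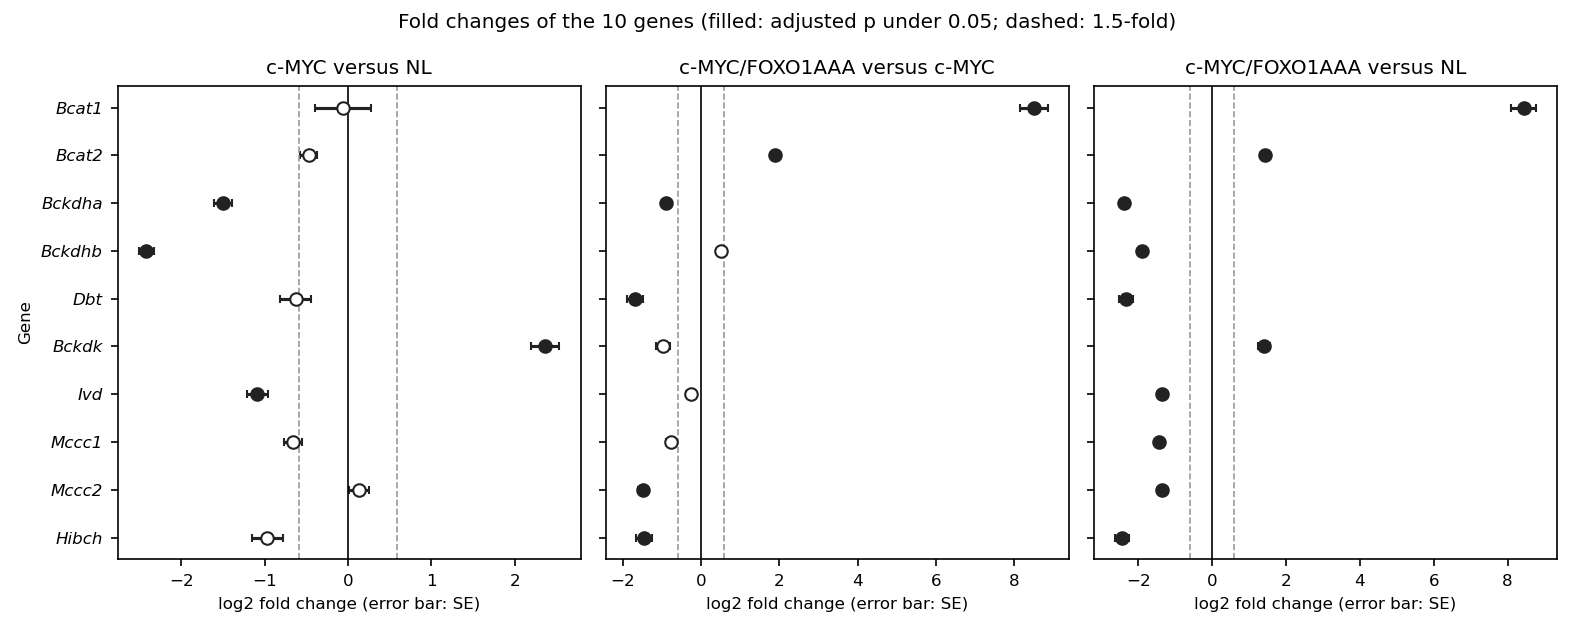
Log2 fold changes (log2 ratios) of the 10 genes in the 3 comparisons, on the scale of the deposited values, with error bars of 1 SE. The x axis differs between panels. Filled points passed the test and dashed lines mark 1.5-fold. Both aminotransferase genes are filled and to the right in the c-MYC/FOXO1AAA comparisons. In c-MYC/FOXO1AAA against NL, all 10 points are filled. The filled points of Bcat1 are a description, as it entered the test only through the libraries in which it was high. The size for Bcat1 depends on the value given to genes without reads.

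The way libraries are scaled bears on the direction of the smaller changes. Scaling all libraries to the same FPKM total raised the median log2 ratio of all genes by 0.93 in c-MYC against NL, by 0.17 between the tumours and by 1.10 in c-MYC/FOXO1AAA against NL. Under it, 7061 genes were called higher and 1895 lower in c-MYC against NL, in place of 3435 and 3305, and 8129 higher and 2099 lower in c-MYC/FOXO1AAA against NL, in place of 4371 and 3728. Among the members, the calls of Bckdha and Ivd in c-MYC against NL were then lost, and Mccc2 was called higher there. In c-MYC/FOXO1AAA, the calls of Ivd, Mccc1 and Mccc2 against NL and of Bckdha against c-MYC were lost. The calls of Bcat2, Bckdhb, Dbt, Bckdk and Hibch remained in each comparison in which they had been made. Those of Bcat1 also remained, as a description only. Taken relative to the median of all genes, 8 of the 10 members lay below it in c-MYC against NL and 7 of 10 between the tumours. By definition, as many of all genes lie below that median as above it. Rescaling cannot alter these counts, because it moves the members and the median by the same amount. Of the 8, Bcat1 rests on 0 or 1 read per library, where no fold change can be given. Relative to that median, Bckdhb was at -2.50 and Bckdk at 2.29 in c-MYC against NL.

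Of the 31 other genes of the pathway, 2 were called higher and 16 lower in c-MYC against NL, where 24.5% and 23.6% of all genes were called so. The median log2 ratio was -0.96, beside 0.08 for all genes tested. Between the tumours 2 were called higher and 11 lower (15.9% and 12.7% of all genes), with a median of -0.43 beside 0.03. In c-MYC/FOXO1AAA against NL, 2 were called higher and 23 lower (31.2% and 26.6% of all genes), with a median of -1.89 beside 0.21. The genes that moved up were carriers and 1 regulator, and none of the 23 enzymes and mitochondrial partners was called higher in any of the 3 comparisons.

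Beside the complex, Dld, which encodes the dihydrolipoamide dehydrogenase that the complex shares with other keto acid dehydrogenases, passed the test in no comparison, with log2 ratios of 0.19 and -0.83 in c-MYC against NL and between the tumours (adjusted p 1 and 0.0767, limma). Slc25a44, the mitochondrial carrier of branched-chain amino acids, had a log2 ratio of -0.61 in c-MYC against NL (SE 0.13, adjusted p 0.652, limma) and fell, at a log2 ratio of -1.02, between the tumours (SE 0.14, adjusted p 0.0191, limma).

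Auh, which encodes methylglutaconyl-CoA hydratase in leucine breakdown, had a log2 ratio of -0.35 in c-MYC against NL (adjusted p 1, limma) and fell between the tumours, with a log2 ratio of -1.29 (adjusted p 0.000457, limma). At the end of valine breakdown, Hibadh and Aldh6a1 fell in c-MYC against NL, with log2 ratios of -1.78 and -2.40 (adjusted p 1.90e-06 and 3.82e-08, limma). Both fell again between the tumours, with log2 ratios of -1.15 and -1.14 (adjusted p 0.00137 and 0.000704, limma).

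Of the 7 genes for acyl-CoA steps in isoleucine and valine breakdown, 4 fell in c-MYC against NL and 4 fell between the tumours. Among all genes tested, 23.6% and 12.7% were called lower in these comparisons. Acat1, encoding the mitochondrial acetyl-CoA acetyltransferase, had the largest fall of an enzyme between the tumours, by 1.80 on the log2 scale (SE 0.12, adjusted p 8.77e-06, limma). Of the 8 genes that carry propionate to succinyl-CoA, 5 fell in c-MYC against NL and 1, Mcee, fell between the tumours, the last near the share of all genes. For biotin, the cofactor of the carboxylases, Btd fell, at a log2 ratio of -2.13, in c-MYC against NL (SE 0.12, adjusted p 6.04e-07, limma), and Hlcs, the ligase that attaches it, passed no test.

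Of the 5 genes listed for carriage at the plasma membrane, 2 were called higher and none lower in c-MYC against NL (24.5% and 23.6% of all genes). Between the tumours 1 was called higher and 1 lower, near the shares of all genes (15.9% and 12.7%). Slc7a5, the large neutral amino acid carrier known for its part in growing cells, averaged 2.52 ± 1.29 FPKM over the 4 NL libraries and 38.4 ± 9.14 FPKM (SD) over the 3 of c-MYC. It rose with a log2 ratio of 4.02 (SE 0.33, adjusted p 4.60e-06, limma). Its tumour values overlapped, with a log2 ratio of 0.40 (SE 0.35, adjusted p 1, limma). Slc7a8, a related carrier, was at 1.37, 11.2 and 1.30 FPKM in NL, c-MYC and c-MYC/FOXO1AAA. It rose in c-MYC over NL and fell between the tumours, with log2 ratios of 3.12 and -3.13 (adjusted p 5.33e-05 and 0.000158, limma). Slc43a2, another neutral amino acid carrier, was at 2.64, 4.42 and 30.6 FPKM, and rose between the tumours, with a log2 ratio of 2.80 (SE 0.16, adjusted p 8.92e-07, limma). Slc3a2 and Slc43a1, the other genes of this list, passed no test.

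Regulators reported for the pathway fell in c-MYC against NL. Klf15, a transcription factor that acts on branched-chain amino acid breakdown, averaged 107.3 ± 7.68 FPKM over the 4 NL libraries and 22.3 ± 2.24 FPKM (SD) over the 3 c-MYC libraries. It fell with a log2 ratio of -2.27 (SE 0.10, adjusted p 6.51e-08, limma). Between the tumours its log2 ratio was -0.26 (SE 0.10, adjusted p 1, limma). Ppara, a nuclear receptor of fatty acid oxidation, fell in both of these comparisons, with log2 ratios of -2.54 and -2.62 (adjusted p 5.46e-06 and 1.31e-05, limma). Ppargc1a, a coactivator, fell in c-MYC against NL and rose between the tumours, with log2 ratios of -5.05 and 2.02 (adjusted p 1.56e-05 and 0.0473, limma), from 137 to 172 reads in NL, 2 to 23 in c-MYC and 35 to 50 in c-MYC/FOXO1AAA.

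**Figure D4:**
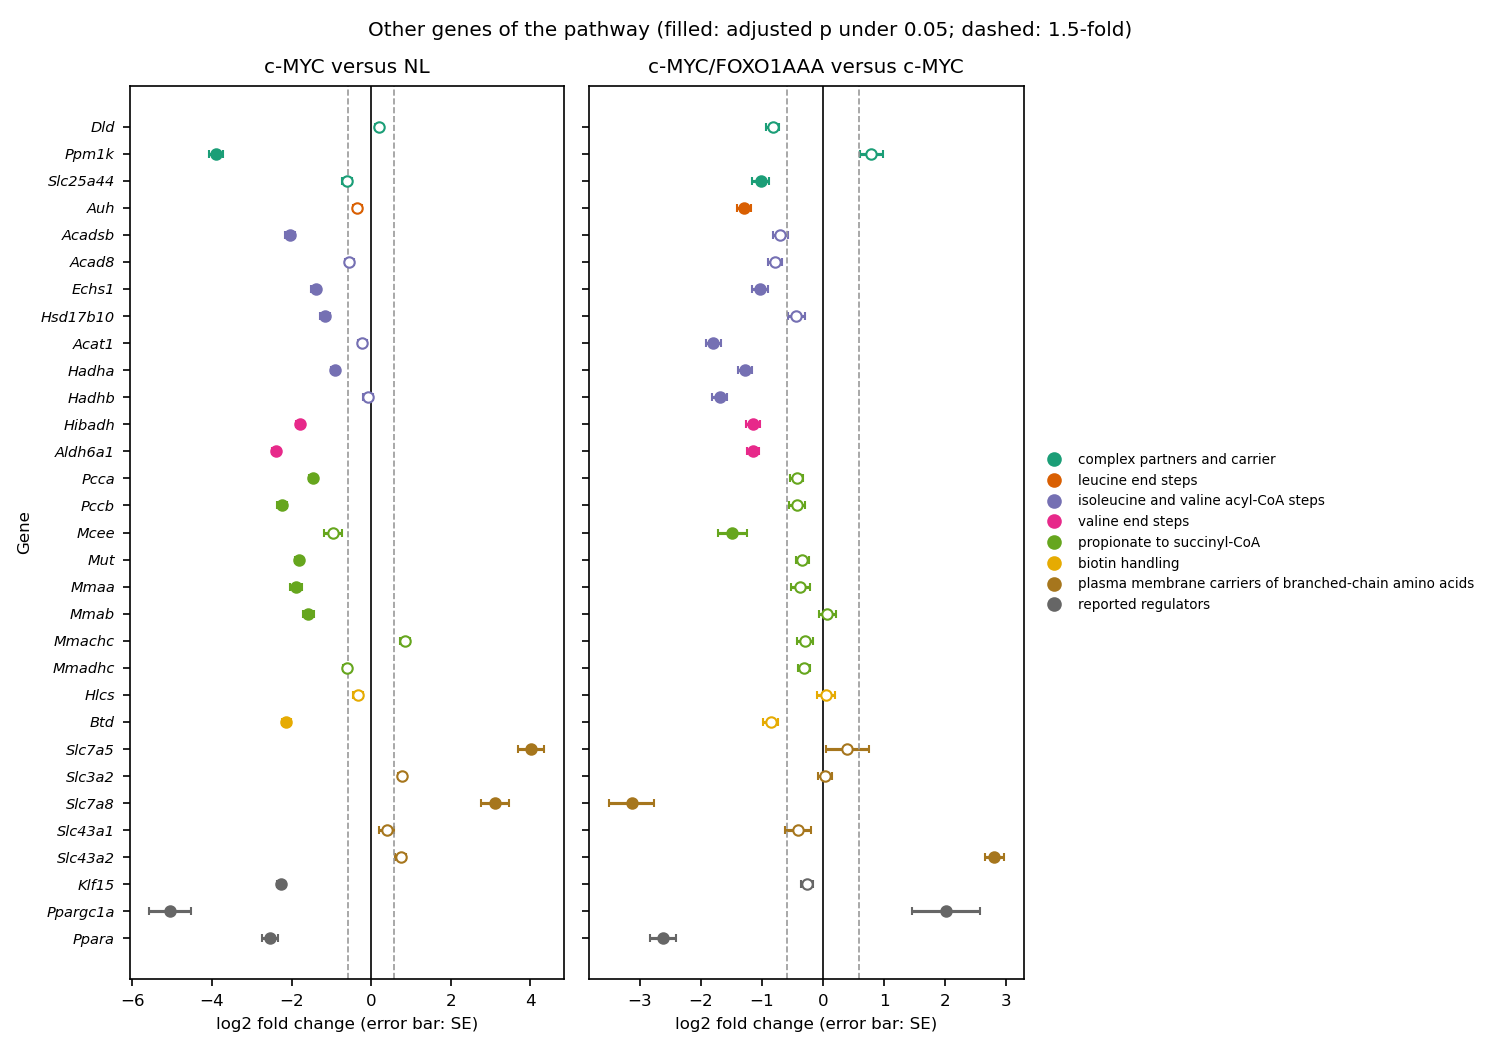
Log2 fold changes (log2 ratios) of the 31 other genes of the pathway, coloured by list, with error bars of 1 SE, in c-MYC against NL and in c-MYC/FOXO1AAA against c-MYC. The x axis differs between panels, filled points passed the test and dashed lines mark 1.5-fold. Slc7a5 and Slc7a8 are the filled points above 0 on the left, and Slc43a2 and Ppargc1a on the right.

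Markers of several cell types differed between the groups. Hnf4a, a hepatocyte transcription factor, was at 183.2, 94.4 and 7.18 FPKM in NL, c-MYC and c-MYC/FOXO1AAA. Between the tumours, 4 of the 7 hepatocyte markers fell and 2 rose, where 12.7% of all genes were called lower and 15.9% higher. The 6 markers of stellate cells and fibroblasts summed to 75.3 to 96.9 FPKM in NL, 10.7 to 33.4 in c-MYC and 324 to 403 in c-MYC/FOXO1AAA. Of these 6, 5 were called higher and 1 lower in c-MYC/FOXO1AAA against NL, where 31.2% and 26.6% of all genes were called so. Dcn, the largest part of the sum, went from 69.8 to 235.7 FPKM, and Lrat, the marker that fell, from 3.85 to 0.278 FPKM. Macrophage markers summed to 174 to 305 FPKM in NL, 43.3 to 55.5 in c-MYC and 41.1 to 66.9 in c-MYC/FOXO1AAA. Of these 6 macrophage markers, 3 were called lower and 1 higher in c-MYC against NL, where 23.6% and 24.5% of all genes were called so. Clec4f, which made up most of the sum in NL, went from 208 to 4.66 FPKM, and Cd68 from 7.02 to 34.5 FPKM. Endothelial markers summed to 45.2 to 60.7, 9.81 to 17.3 and 26.3 to 41.0 FPKM in the same order. Clec4g made up most of that sum in NL, at 33.6 FPKM. Between the tumours, 1 of the 5 endothelial markers tested was called higher, Cdh5, from 4.6 to 25.95 FPKM, and none lower. Among all genes tested, 15.9% were called higher, which is near this share, and 12.7% lower. The median log2 ratio of the endothelial markers was -0.71 between the tumours. The summed markers of cholangiocytes were highest in c-MYC, at 15.4 to 30.8 FPKM, and those of lymphocytes in c-MYC/FOXO1AAA, at 8.34 to 12.6 FPKM. The neural and pancreatic lists, of which 2 and 1 genes are listed, were highest in NL, at up to 4.29 and 206 FPKM. The part of any of these cell types in the members' values was not tested.

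Reads from a gene on the opposite strand cannot be told apart where the counting did not use strand, and the sources used here do not say. Exons on the opposite strand overlap those of Bcat1, Bcat2, Bckdha and Mccc1. For Bcat2 the partner is 0610005C13Rik, which shares up to 247 bases and was at 438.7, 164 and 14.2 FPKM in NL, c-MYC and c-MYC/FOXO1AAA. From NL to c-MYC both means were lower, and from c-MYC to c-MYC/FOXO1AAA that of the partner was lower and that of Bcat2 higher. The part of such reads in the Bcat2 values was not tested. For Bckdha it is B3gnt8, at no more than 2.40 FPKM in any library. The partners of Bcat1 and Mccc1 were not analysed here.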

How the data were processed

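Log2 FPKM were used as deposited by the authors, who counted reads per gene, converted Ensembl identifiers to symbols and analysed the counts with edgeR in R. The submitters' processing notes name GRCm38 and FastQC 0.11.7, and the aligner and counter are not given in the sources used here. The values showed that 2 reads, adjusted to the size of each library, were added before the logarithm, so that whole reads and gene lengths could be recovered. A single solution was found for 16687 of 16697 genes, within 0.001 reads, and 97.7% of the 16623 genes in the annotation had the length of an annotated transcript. Of 17069 entries, 372 carry no values and were left out.

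As the deposited unit is a log2 level and not a count, limma 3.58.1 (R 4.3.3) was fitted to the 14017 genes at 1 FPKM or more in 3 or more libraries, over all 10 libraries with a mean per group. The function treat tested for a change above 1.5-fold with trend and robust estimation (statmod 1.5.0), and a gene was called at an adjusted p (Benjamini-Hochberg) below 0.05. Fold changes understate low genes because of the added reads. The procedure was tested on simulated data. Samples were grouped by their titles.

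All members are named. Of 31 other pathway genes, those in lists of at most 3 genes and the 3 largest changes in each direction per comparison are named, beside the 5 genes closest to Bcat1 and to Bcat2. A further gene of the list is not reported here. Foxo1 and Myc served as checks. Mcee, Slc3a2, Slc43a1, Hnf4a, Clec4f, Cd68, Dcn, Lrat, Clec4g, Cdh5 and the overlapping partner genes were named after their values were seen. The members and lists were chosen with earlier results of these data known. The alternatives were other pseudocounts, filters, scalings and thresholds, plain estimation, fits of 2 groups, a replicate block and each library left out.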

Additional observations from a re-analysis of the deposited data

Results flagged for a closer look

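Bcat1 in NL 4 stood at 0.140 FPKM, apart from the other 3 NL libraries, which were all at the value of a gene without reads. The gap to the nearest library made up the whole range of the group. It rests on 1 read. The 10 members were examined in NL in this way, of which 1 stood out, and chance alone marks about 1 group in 20.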

How the results depend on the processing

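Over the alternatives, Bcat2, Dbt and Mccc2 kept their calls between the tumours. All 10 members kept theirs in c-MYC/FOXO1AAA against NL except at equal FPKM totals, where 7 were called, beside 10228 of the 14017 genes tested. The calls of Bcat1 also stayed in both, as a description only, since it entered the test through the libraries in which it was high. Without a fold threshold, 8 members were called in c-MYC against NL in place of 4, where 10432 of the 14017 genes tested were called in place of 6740. Leaving out 1 library gave 4 to 5 members called in c-MYC against NL, 5 to 7 between the tumours and 10 in c-MYC/FOXO1AAA against NL. Of the 14017 genes tested, these fits called 6385 to 6794, 3593 to 4022 and 7681 to 8161 in the same order. In c-MYC against NL, the log2 ratio of Bcat1 turned to 0.87 at equal FPKM totals and to 0.18 with the replicate block, and ranged from -0.24 to 0.18 with 1 library left out, on 0 or 1 read. Equal FPKM totals also turned the ratios there of Bcat2 to 0.45, Dbt to 0.30, Mccc1 to 0.27, Slc25a44 to 0.32, Auh to 0.58, Acat1 to 0.71 and Hlcs to 0.60, and in c-MYC/FOXO1AAA against NL those of Dld to 0.46, Hlcs to 0.82 and Slc7a8 to 1.08. These 11 sign changes follow from the shift of the median of all genes. At equal medians, Hlcs turned to -0.0363 between the tumours. Slc7a8 in c-MYC/FOXO1AAA against NL turned to 0.0574 with the replicate block and ranged from -0.22 to 0.25 with 1 library left out.

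Over all genes, 6740 were called in c-MYC against NL and 10432 without a fold threshold. Between the tumours 4016 were called, against 7688 without a threshold, 2712 at 2-fold and 2280 at a mean of at least 5 FPKM. Samples that share a replicate number did not deviate together, with correlations of -0.04 to 0.03, so the numbers do not pair them. In a fit with the replicate block, 4, 5 and 10 members were called in the 3 comparisons, beside 6407, 3852 and 7810 of the 14017 genes tested. The 5 and the 10 include Bcat1, as a description only. In that fit NL 4, which has no partner, did not enter the contrasts. Reads limit Bcat1 to an upper bound in NL and c-MYC, while every other member had at least 173 reads in each library.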
